A study of Mus musculus with 4 samples.

Results

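The genes described here are 3 Notch receptors (Notch1, Notch2, Notch3) and 7 genes named as direct targets of Notch signalling (Hes1, Hes5, Hey1, Heyl, Dtx1, Dtx4, Nrarp). They were chosen by name, with earlier results of these data known. All 10 had a probe set with a single gene symbol, among 19938 named genes on the array. Each of the 10 had 1 such probe set, so no choice between probe sets was needed. Values are log2 signal, and a difference of 1 on this scale is a 2-fold difference. Probe sets differ in their probes, so levels are compared between arrays for a gene and not between genes.

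Notch receptors are membrane proteins that are cut when a ligand of the Delta or Jagged family on a neighbouring cell binds them. The freed intracellular part enters the nucleus, joins the DNA-binding protein RBPJ and a Mastermind coactivator, and switches on target genes. In the thymus this signal, given by the ligand DL4 to Notch1, directs progenitors to the T lineage.

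LMPPs, lymphoid-primed multipotent progenitors, came pooled from the bone marrow of wild-type C57BL/6 mice, sorted as negative for lineage markers, positive for Sca1 and Kit and high for Flt3. They were measured on 1 array after 48 hours in cytokine medium, without any later culture on stroma. Tcf1 cells came from LMPPs given a retrovirus with Tcf1, a transcription factor, and the marker VEX, and were grown on OP9 stroma, which was not given a Notch ligand. Their RNA was hybridised to 2 arrays, which the labels call biological replicates. Control cells came from LMPPs given the retrovirus with VEX alone, were grown on OP9 stroma expressing DL4, and were measured on 1 array. Both cultures began with VEX-positive cells sorted after 48 hours, contained IL7 and Flt3 ligand, and were sorted on day 10 as Thy1+CD25+ cells without Mac1 or Gr1. Tcf1 and control cells thus differed in vector and in stroma, and the effects of Tcf1 and of the ligand cannot be told apart. Tcf1 in this design was supplied by a retrovirus, and age and sex of the mice are not given in the labels used here.

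The sort markers followed the gates. Il2ra, which encodes CD25, read 6.88 in LMPPs, 12.91 and 12.99 in Tcf1 replicates 1 and 2, and 13.64 in control cells. Thy1 read 8.13, 12.38, 12.53 and 12.98 in the same order. Of 11 measured T lineage markers, 6 were higher in Tcf1 cells than in LMPPs by the test described below, beside 1.75% of all genes. The 6 were these sort markers, Gata3, Il7r, Bcl11b and Cd3g. Tcf1 cells were sorted for Thy1 and CD25, so the sort markers were high by the gate, and their place in this count is no result. Bcl11b, a factor of T lineage commitment, read 7.42 in LMPPs, 9.40 and 9.60 in Tcf1 cells and 10.28 in control cells. Cd3g read 5.62, 6.48, 6.64 and 13.001 in the same order. It lay at percentiles 30.1 and 33.1 of the named genes in the Tcf1 arrays and at 99.7 in the control array. Cd3e, another chain of the CD3 complex, read 7.32 in LMPPs, 7.45 and 7.42 in Tcf1 cells and 10.41 in control cells, and did not pass against LMPPs. Cd3d (0.16 from LMPPs), Ptcra (0.07), Rag1 (0.51) and Rag2 (-0.66) did not pass either. Tcf7, the gene of Tcf1, is not analysed here, so the labels could not be checked by the transduced gene.

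Upstream sequence could be matched in RefSeq (GRCm38.p6) for 6 of the 10 genes. It is shown for Notch1, Notch3 and Nrarp, whose readings were lower in both Tcf1 arrays than in the control array. The same held for Dtx1, of which only a short stretch is shown further on. The bases before the transcription start that lie outside the gene record are printed 5′ to 3′ in the direction of the gene, in lower case, with any match to CACGTG, an E-box bound by Hes and Hey proteins, in capitals.
Notch1 chr2:26503823-26504072 (- strand): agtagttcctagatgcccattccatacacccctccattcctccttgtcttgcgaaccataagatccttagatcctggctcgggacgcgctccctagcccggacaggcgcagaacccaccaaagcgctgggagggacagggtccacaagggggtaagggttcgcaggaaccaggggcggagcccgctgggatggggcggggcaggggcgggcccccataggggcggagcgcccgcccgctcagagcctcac
Notch3 chr17:32166897-32167140 (- strand): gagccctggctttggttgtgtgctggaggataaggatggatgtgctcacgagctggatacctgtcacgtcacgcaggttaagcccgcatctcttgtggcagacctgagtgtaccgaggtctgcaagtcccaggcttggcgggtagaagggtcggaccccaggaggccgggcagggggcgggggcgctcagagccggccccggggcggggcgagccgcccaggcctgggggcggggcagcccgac
Nrarp chr2:25180508-25180757 (+ strand): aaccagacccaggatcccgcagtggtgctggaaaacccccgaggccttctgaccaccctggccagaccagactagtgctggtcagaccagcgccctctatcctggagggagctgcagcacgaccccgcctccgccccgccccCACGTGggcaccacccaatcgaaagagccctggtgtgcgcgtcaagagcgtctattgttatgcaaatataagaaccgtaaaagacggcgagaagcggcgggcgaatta
The 3 stretches were rich in G and C, at 66.0% for Notch1, 68.9% for Notch3 and 61.2% for Nrarp. The capitals in Nrarp mark 1 match, which begins 108 bases before the start.

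The core of the RBPJ site, TGGGAA, was searched on both strands in the 250 bases before the start. It was found in 1 of the 6 genes, Hes5, and in 21.6% of 32851 start sites in the RefSeq table. Hes5 had 2 matches, shown in capitals with the bases around them, both read in the direction of the gene, with the distal match on the opposite strand.
Hes5 distal site chr4:154960685-154960714 (+ strand): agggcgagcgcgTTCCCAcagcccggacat
Hes5 proximal site chr4:154960829-154960858 (+ strand): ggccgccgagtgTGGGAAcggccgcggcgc
The Hes5 matches begin 226 and 82 bases before the start. The TCF/LEF core CTTTGAT was in 0 of the 6 windows and in 3.21% of all windows. CACGTG was in 6.02% of all windows, and CACGCG, the related class C site of Hes and Hey proteins, was in Notch2 and Dtx1 and in 7.62% of all. The Dtx1 match lies on the strand opposite to the gene, 77 bases before the start.
Dtx1 site chr5:120711729-120711758 (- strand): gactcggtgactCGCGTGtcacagcggctg
These matches are descriptions of the windows; factor binding was not measured.

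Tcf1 cells were compared with control cells to ask whether T lineage cells obtained with Tcf1 and without added Notch ligand carried the Notch receptor and target transcripts of ligand-grown cells. Of the 10 genes, 5 were lower in Tcf1 cells, 0 were higher and 5 did not pass (limma, Benjamini-Hochberg adjusted p under 0.05 over all genes). Over all genes 2.49% were lower, 1.90% were higher and 4.38% passed in either direction. The 10 genes were chosen with earlier results known, so their count beside these shares is a description. The 5 were Notch1, Notch3, Hes1, Dtx1 and Nrarp, at 2.45-fold to 8.45-fold lower readings. The median difference over the 10 was -0.97 on the log2 scale, against 0.02 over all genes. Only the spread between the 2 Tcf1 arrays entered the error of this test, and LMPP and control cells, at 1 array each, were assumed to share it. Run over all 35399 probe sets, no member passed, with 6 at an unadjusted p under 0.05 in limma and adjusted p from 0.127 (Hes1 and Dtx1) to 0.22 (Notch3) for these 5.

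**Figure D1:**
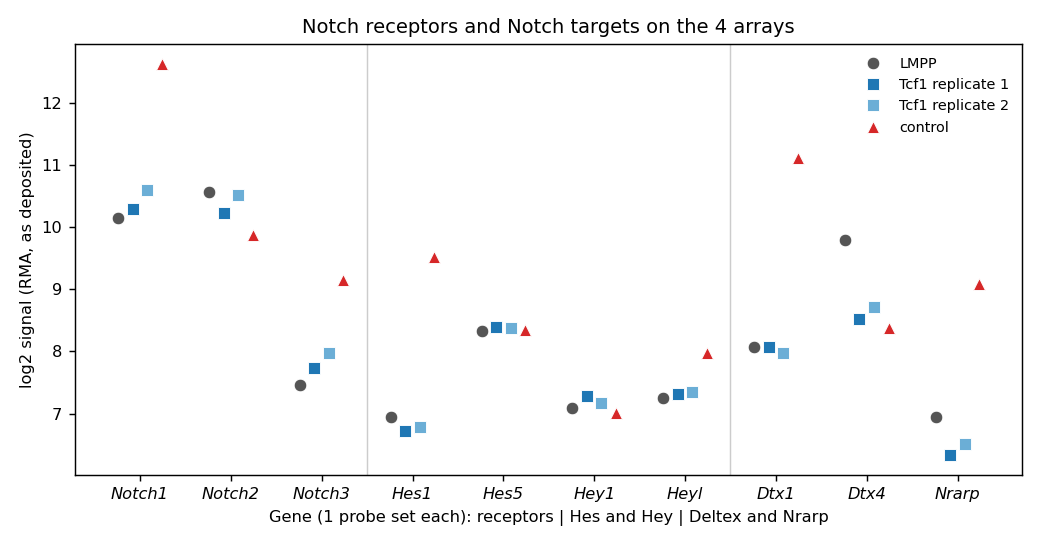
Log2 signal (vertical axis) of the 10 genes (horizontal axis) in the LMPP array (circles), the 2 Tcf1 arrays (squares) and the control array (triangles). The control array stands above the other 3 for Notch1, Notch3, Hes1, Heyl, Dtx1 and Nrarp. The LMPP array stands above the others for Dtx4 and, by a small margin, for Notch2.

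Among the receptors, Notch1 and Notch3 were lower in Tcf1 cells than in control cells, and Notch2 did not pass. Notch1, the receptor required for T lineage development, read 10.14 in LMPPs, 10.28 and 10.60 in Tcf1 replicates 1 and 2, and 12.63 in control cells. Both Tcf1 arrays lay close to the LMPP array and far below the control array. The Tcf1 mean of 10.44 ± 0.23 (SD, n = 2) differed from control by -2.18 in log2 units (SE 0.19, adjusted p = 0.00187, limma), a 4.55-fold difference. Against LMPPs it differed by 0.30 (SE 0.19, adjusted p = 0.615, limma), with a 95% interval of the fit from -0.16 to 0.76.

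Notch3, a receptor that is itself raised by Notch signals in immature thymocytes, read 7.45 in LMPPs, 7.74 and 7.97 in Tcf1 cells and 9.15 in control cells. Its Tcf1 arrays lay between the LMPP and control arrays, nearer to the LMPP array. The Tcf1 mean of 7.85 ± 0.16 (SD, n = 2) differed from control by -1.29 (SE 0.18, adjusted p = 0.0102, limma). The difference from LMPPs was 0.40 (SE 0.18, adjusted p = 0.376, limma), with an interval from -0.02 to 0.82.

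Notch2, a receptor best known in the blood system for marginal zone B cells, had the opposite order of arrays. It read 10.56 in LMPPs, 10.23 and 10.51 in Tcf1 cells and 9.88 in control cells. Its Tcf1 mean differed from control by 0.49 (SE 0.18, adjusted p = 0.277, limma) and from LMPPs by -0.20 (SE 0.18, adjusted p = 0.79, limma), and neither passed. The intervals were 0.05 to 0.93 against control and -0.63 to 0.24 against LMPPs. Notch4, the fourth mammalian receptor, known from endothelium, read 7.12 in LMPPs, 7.16 and 7.15 in Tcf1 cells and 7.06 in control cells, without passing in either comparison.

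The Hes and Hey genes encode basic helix-loop-helix repressors, the classical targets of the RBPJ complex. Of these 4 genes, Hes1 was lower in Tcf1 cells than in control cells, and Hes5, Hey1 and Heyl did not pass. Hes1, the family member best known in early T cell development, read 6.94 in LMPPs, 6.73 and 6.79 in Tcf1 cells and 9.52 in control cells. The control array alone was high, and both Tcf1 arrays read below the LMPP array. The Tcf1 mean of 6.76 ± 0.04 (SD, n = 2) differed from control by -2.77 (SE 0.16, adjusted p = 0.000401, limma), or 6.81-fold. From LMPPs it differed by -0.18 (SE 0.16, adjusted p = 0.766, limma), with an interval from -0.57 to 0.20.

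Heyl read 7.25 in LMPPs, 7.32 and 7.34 in Tcf1 cells and 7.97 in control cells. The control array was again the highest, by a smaller margin: the Tcf1 mean of 7.33 ± 0.02 (SD, n = 2) differed from control by -0.64 (SE 0.16, adjusted p = 0.0888, limma). Heyl passed once arrays were centred on the median gene (adjusted p = 0.0266, limma) or dim genes were left out (adjusted p = 0.0406, limma).

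Hes5, a Notch target best known in neural progenitors, read 8.33 in LMPPs, 8.40 and 8.38 in Tcf1 cells and 8.35 in control cells, with no array standing apart. Its difference from control was 0.04 (interval -0.34 to 0.42) and from LMPPs 0.06 (interval -0.32 to 0.44). Hey1, a target best known in vessels and heart, read 7.09, 7.28, 7.17 and 7.01 in the same order of arrays, with differences of 0.22 from control (interval -0.17 to 0.61) and 0.14 from LMPPs (interval -0.25 to 0.53). Readings of Hey1 lay below the median gene of each array (7.47 to 7.59). No detection calls were used, so a flat reading may be one of a gene that was not expressed.

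Dtx1, Dtx4 and Nrarp act on the pathway itself. Dtx1 and Dtx4 encode Deltex ubiquitin ligases that bind the intracellular part of Notch, and Nrarp encodes an ankyrin repeat protein that limits Notch signalling. Dtx1 and Nrarp were lower in Tcf1 cells than in control cells, whereas Dtx4 passed only against LMPPs. Dtx1 read 8.07 in LMPPs, 8.08 and 7.97 in Tcf1 cells and 11.10 in control cells. The LMPP reading lay between the 2 Tcf1 readings, and the control array was alone in being high. The Tcf1 mean of 8.02 ± 0.07 (SD, n = 2) differed from control by -3.08 (SE 0.16, adjusted p = 0.000324, limma), or 8.45-fold, the largest of the 10 differences. From LMPPs it differed by -0.05 (SE 0.16, adjusted p = 0.964, limma), with an interval from -0.44 to 0.34.

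Nrarp read 6.94 in LMPPs, 6.33 and 6.51 in Tcf1 cells and 9.08 in control cells. Both Tcf1 arrays lay below the LMPP array, and the control array lay above all others. The Tcf1 mean of 6.42 ± 0.13 (SD, n = 2) differed from control by -2.65 (SE 0.17, adjusted p = 0.00058, limma), or 6.30-fold. In the Tcf1 arrays Nrarp lay at percentiles 27.2 and 30.5 of the named genes, and Hes1 at 35.0 and 35.9. Whether these signals were above background was not called, so both folds are ratios of signals, not of transcript amounts. The difference of Nrarp from LMPPs was -0.52 (SE 0.17), at an unadjusted p of 0.02 and adjusted p = 0.214 in limma, and did not pass. Its interval, which is not adjusted over genes, ran from -0.92 to -0.11.

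Dtx4 read 9.79 in LMPPs, 8.52 and 8.72 in Tcf1 cells and 8.37 in control cells. Here the LMPP array alone was high, and Tcf1 and control cells lay together. The Tcf1 mean of 8.62 ± 0.14 (SD, n = 2) differed from LMPPs by -1.16 (SE 0.17, adjusted p = 0.0169, limma), or 2.24-fold. From control it differed by 0.25 (SE 0.17, adjusted p = 0.686, limma), with an interval from -0.16 to 0.66.

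**Figure D2:**
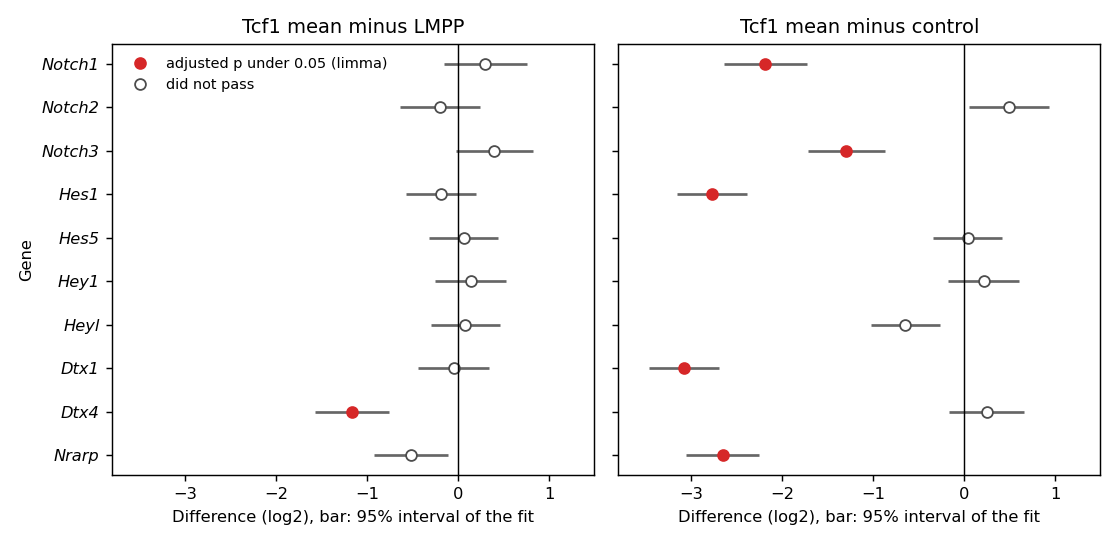
Difference of the Tcf1 mean from the LMPP array (left) and from the control array (right), on the log2 scale, with the 95% interval of the limma fit as a bar and filled points for adjusted p under 0.05. Only Dtx4 passes on the left, and Notch1, Notch3, Hes1, Dtx1 and Nrarp pass on the right, from -1.29 to -3.08.

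Against LMPPs, Dtx4 was the only gene of the 10 to pass, and it was lower. Of all genes 3.06% passed in this comparison and 1.31% were lower. Dtx4 was also the only member at least 2-fold apart from LMPPs, as were 2.90% of all genes. 2 members had an unadjusted p under 0.05 in limma, Dtx4 and Nrarp. The median difference over the 10 was 0.01, against a median close to 0 over all genes. A p that misses the threshold does not show equal levels, and the intervals allow differences of up to 0.82 for Notch3 and -0.92 for Nrarp. Over all probe sets Dtx4 did not pass either (adjusted p = 0.298, limma).

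Control cells and LMPPs, at 1 array each, had no test. Of the 10 genes, 5 were at least 2-fold higher in control cells and 1 was at least 2-fold lower, where 3.17% and 2.36% of all genes were (5.53% in either direction). Dtx1 was higher by 3.03 on the log2 scale (8.17-fold), Hes1 by 2.58, Notch1 by 2.48, Nrarp by 2.14 and Notch3 by 1.69. Dtx4 was lower, at -1.41. Notch2 differed by -0.69 and Heyl by 0.73, and Hes5 (0.02) and Hey1 (-0.08) were nearly level. This comparison shares its arrays with the other comparisons and is no separate evidence for them.

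**Figure D3:**
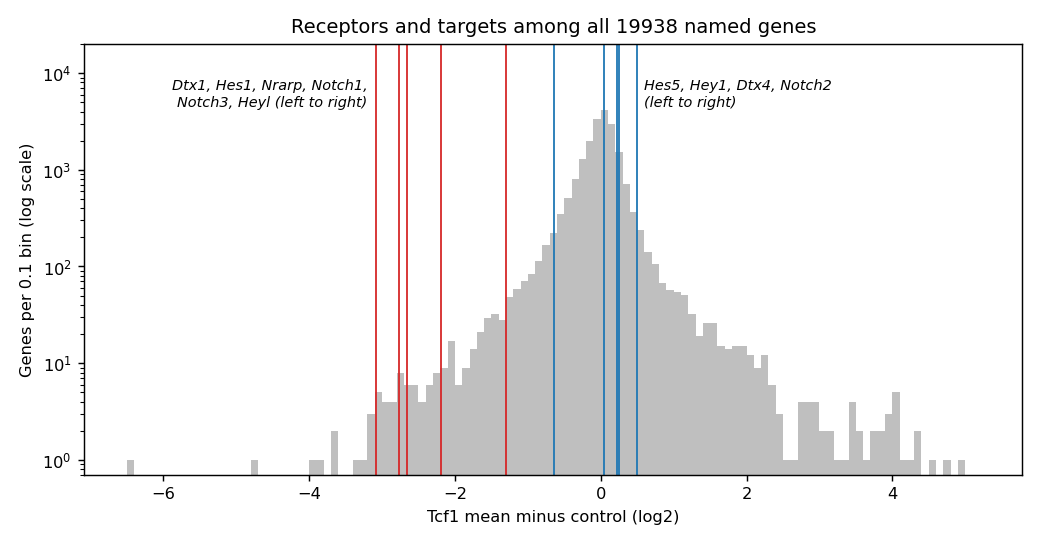
Number of named genes (vertical axis, log scale) by the difference of Tcf1 cells from control cells (horizontal axis, log2), with lines at the 10 genes. The 5 genes that were lower by at least 2-fold (red lines) lie in the left tail, and Hes5, Hey1, Dtx4 and Notch2 lie to the right of 0.

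Ordered from the most negative difference between Tcf1 and control cells, Dtx1 ranked 12, Hes1 27, Nrarp 34, Notch1 63 and Notch3 231 among 19938 genes. Heyl ranked 883. The Tcf1 replicates were close to each other for most of the 10 genes. Their gap was 0.02 for Hes5 and Heyl and reached 0.32 for Notch1, with a median of 0.14 over the 10 and 0.15 over all genes. Notch1, Notch2 and Notch3 read higher in replicate 2 than in replicate 1, by 0.32, 0.28 and 0.23, on arrays whose median gene read 7.59 and 7.47. Each of the 5 genes was at least 2-fold lower than control in both replicates. Of all genes 3.80% were at least 2-fold apart in either direction between the Tcf1 mean and control, which is a looser criterion. For the 5 genes, the replicate with the smaller difference gave -1.18 for Notch3, -2.02 for Notch1, -2.56 for Nrarp, -2.74 for Hes1 and -3.03 for Dtx1.

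The rest of the pathway was described through lists by role, with 57 of 61 genes measured. Of the 50 measured genes of the pathway machinery, 2 were lower in Tcf1 cells than in control cells, 0 were higher and 48 did not pass. The median difference of this machinery was -0.03, near that of all genes. Against LMPPs 1 of the 50 was higher, 0 were lower and 49 did not pass. These shares are near the background of all genes given above. The cleavage enzymes, ligands and sugar-modifying enzymes thus gave no call in either comparison, and the calls lay among coactivators and relatives of Deltex.

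Of 5 ligands, none passed in limma, with 1 at an unadjusted p under 0.05 in each comparison. Dll4, the gene of the ligand added to the stroma of control cells, read 7.13 in LMPPs, 7.31 and 7.44 in Tcf1 cells and 7.15 in control cells, so the control array was within 0.03 of the LMPP array and below both Tcf1 arrays. Jag2 had the widest difference, at -0.75 from LMPPs (adjusted p = 0.111, limma). Of 4 ligases that drive ligand uptake, none passed in limma, with 1 against LMPPs and 0 against control at an unadjusted p under 0.05, and Neurl1b differed from LMPPs by -0.50.

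Of 5 enzymes that put sugars on Notch, none passed in limma, with 1 at an unadjusted p under 0.05 in each comparison. Lfng, which favours Delta ligands in thymocyte progenitors, read 10.26 in LMPPs, 10.36 and 10.76 in Tcf1 cells and 10.93 in control cells. Mfng, its relative, differed by -0.79 from control (adjusted p = 0.0827, limma) and by -0.59 from LMPPs. Of 9 cleavage genes, none passed in limma, with 1 against LMPPs and 0 against control at an unadjusted p under 0.05. Adam10, the protease that makes the first ligand-induced cut, differed by -0.40 from LMPPs and -0.19 from control.

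Rbpj, the DNA-binding partner of Notch, read 10.08 in LMPPs, 9.66 and 9.75 in Tcf1 cells and 9.71 in control cells, with the control reading between the 2 Tcf1 readings. Of the 8 genes of its activation complex, Maml2 was lower in Tcf1 cells than in control cells and 7 did not pass. Maml2, a Mastermind coactivator, read 7.65 in LMPPs, 8.02 and 8.36 in Tcf1 cells and 9.37 in control cells. Its Tcf1 arrays lay between the others, at -1.18 from control (adjusted p = 0.0206, limma) and 0.54 from LMPPs (adjusted p = 0.259, limma). Kat2b, a histone acetyltransferase, differed from control by -0.73 (adjusted p = 0.082, limma). The median of this list against control was -0.39. Of 4 measured corepressors none passed in limma, with 2 against control and 0 against LMPPs at an unadjusted p under 0.05, and Spen and Cir1 both differed from control by -0.41.

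Of 8 genes of receptor turnover and the wider Deltex family, Dtx3 passed in both comparisons. Dtx3 read 8.65 in LMPPs, 9.64 and 9.76 in Tcf1 cells and 10.49 in control cells. Tcf1 cells were higher than LMPPs by 1.05 (adjusted p = 0.0216, limma) and lower than control, at -0.79 (adjusted p = 0.0484, limma), so they stood between the 2. Fbxw7, which marks active Notch for degradation, read 7.75 in LMPPs, 7.56 and 7.72 in Tcf1 cells and 8.36 in control cells (-0.71 from control, adjusted p = 0.0758, limma). Dtx3l, which is also induced by interferon, differed by 0.61 from LMPPs (adjusted p = 0.165, limma) and by -0.39 from control. Of 6 other Hes and Hey genes, none passed in limma, with 1 against LMPPs and 0 against control at an unadjusted p under 0.05, and Hes6 differed from LMPPs by -0.45.

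**Figure D4:**
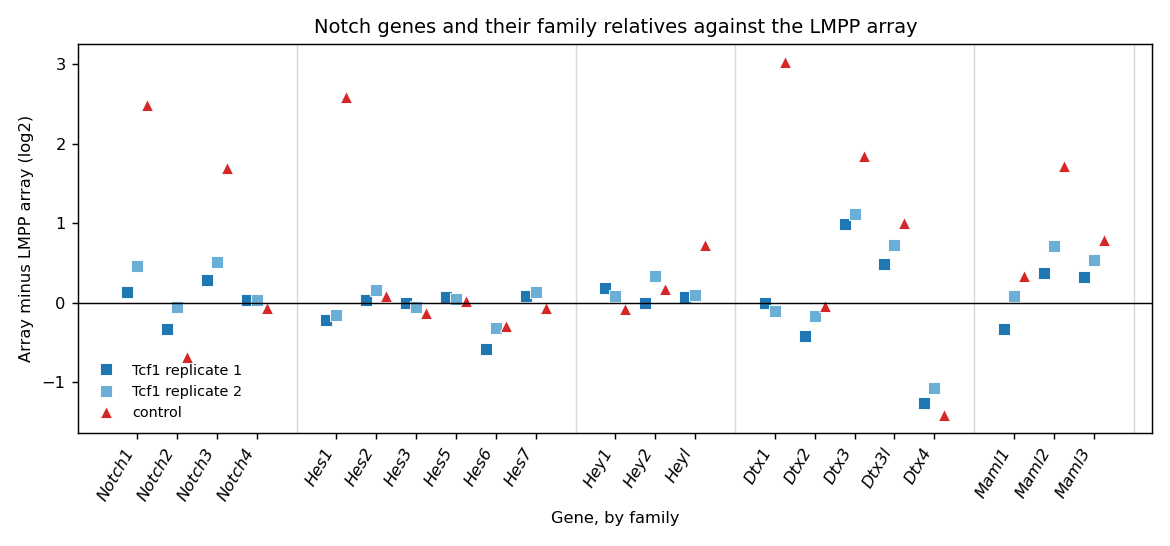
Log2 difference of each Tcf1 array (squares) and of the control array (triangles) from the LMPP array for the receptors, Hes, Hey, Deltex and Mastermind families (horizontal axis). Notch1, Notch3, Hes1, Dtx1, Dtx3, Dtx3l and Maml2 show the control array at least 2-fold above the LMPP array, while Dtx4 shows all 3 arrays at least 2-fold below it.

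The last list held genes reported to respond to Notch in T cell progenitors. Of 7 measured, 4 were higher in Tcf1 cells than in LMPPs, where 1.75% of all genes were, and 3 did not pass. The 4 were Il2ra (6.07), Il7r (2.95), the receptor chain for IL7, Gata3 (2.54), a T lineage transcription factor, and Ccr7 (1.58), a homing receptor. Tcf1 cells were sorted for CD25, so Il2ra was high by the gate, and its place in this count is no result. Against control cells 1 of the 7, Gata3, was lower (-1.30, adjusted p = 0.0144, limma) and 6 did not pass. At an unadjusted p under 0.05 in limma there were 5 of the 7, in both directions. Of these, Il7r and Ccr7 (1.03) read higher in Tcf1 cells, and Il2ra (-0.69), Ptcra (-0.605) and Gata3 read lower. Gata3 read 7.58 in LMPPs, 9.95 and 10.29 in Tcf1 cells and 11.42 in control cells. Its Tcf1 readings thus lay between those of LMPPs and control cells. Il7r read 9.27, 12.11, 12.33 and 11.51 in the same order, with both Tcf1 arrays above the control array (0.70, adjusted p = 0.0916, limma).

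**Figure D5:**
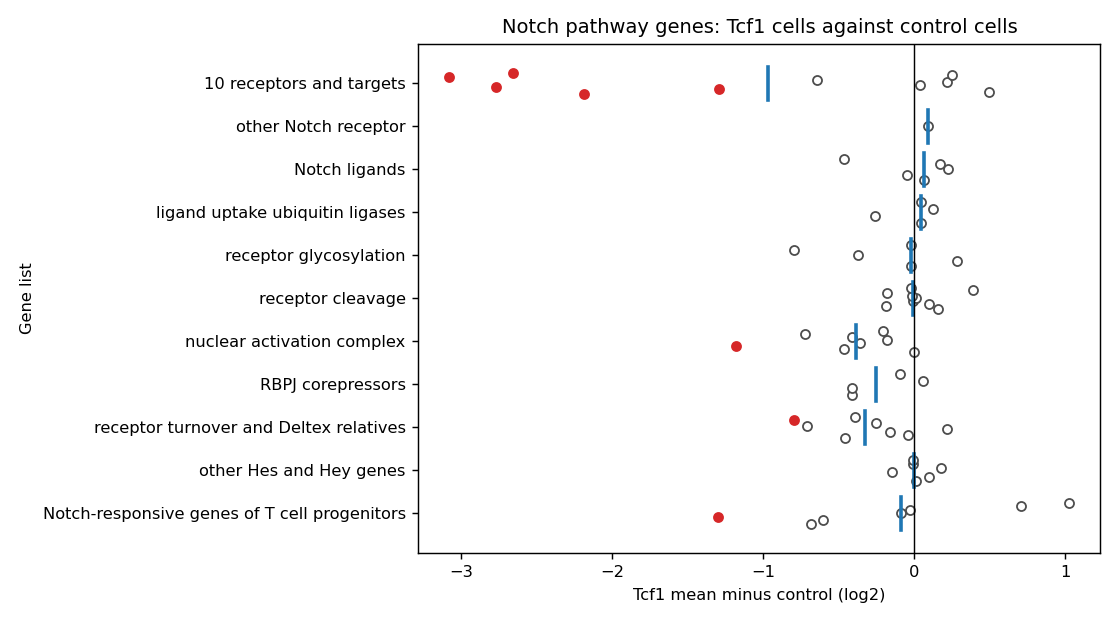
Difference of Tcf1 cells from control cells on the log2 scale (horizontal axis) for the 10 receptors and targets and each pathway list (vertical axis), with a point per gene, red where adjusted p was under 0.05, and a blue bar at the list's median. Red points number 5 of 10 in the top row and 3 of 57 in the rows under it.

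Markers of other cell types and stages also differed between Tcf1 and control cells. Over all genes 1.90% were higher and 2.49% were lower in Tcf1 cells. Of 11 T lineage markers, 6 were lower in Tcf1 cells than in control cells. The mean log2 reading of the 11 was 8.83 and 8.95 in the Tcf1 arrays, 10.79 in control cells and 7.15 in LMPPs. The sort markers Thy1 and Il2ra are part of this mean. The median marker read 7.45 and 7.42 in the Tcf1 arrays, near 7.24 in LMPPs and below 10.42 in control cells. Of 7 progenitor markers, 5 were higher in Tcf1 cells than in control cells, with means of 10.22 and 10.30 against 8.16 in control cells and 10.86 in LMPPs. Against LMPPs 4 of the 7 were lower (Flt3, Mef2c, Lmo2 and Hlf) and 1 was higher (Kit), at a median difference of -0.91. Of all genes 1.31% were lower and 1.75% were higher against LMPPs. LMPPs were themselves sorted for Flt3 and Kit. Of 11 macrophage markers, 7 were higher, with means of 8.57 and 8.81 against 6.93 in control cells and 7.66 in LMPPs. Of 8 dendritic cell markers 3 were higher and 5 did not pass. The 3 were H2-Aa, H2-Ab1 and Cd74, whose 2 Tcf1 replicates lay 1.37, 1.31 and 1.14 apart on the log2 scale. Of 14 stromal markers 2 were higher and 1 was lower. The stromal mean was 7.68 and 7.93 in Tcf1 cells, 7.51 in control cells and 6.89 in LMPPs. Of 8 endothelial and mural markers none passed in either comparison in limma, with 2 at an unadjusted p under 0.05 in each, and 1 of 8 B lineage markers, Cd79b, was lower. RNA came from sorted populations, where fewer cells of a type and less RNA per cell cannot be told apart. The part of these cell types and stages in the differences of the Notch genes was not tested.

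The genes with the most similar pattern to Dtx1, Hes1 and Nrarp, the 3 genes with the largest differences from control, were found by root mean square distance of centred log2 values over the 4 arrays. The 9521 candidates had a mean above the median gene and were not predicted or clone-named, which left out Hes1 and Nrarp themselves. Nearest to Dtx1 were Cd3e (distance 0.07), Ptprf (0.15), Sh2d2a (0.18), Blk (0.20) and Klf4 (0.21). Nearest to Hes1 were Sh2d2a (0.08), Med12l (0.11), Klf4 (0.13), Taf4b (0.14) and Dtx1 itself (0.17). Nearest to Nrarp were Pgr (0.05), Taf4b (0.09), Gimap9 (0.15), Med12l (0.17) and Cdh1 (0.19). With 4 arrays, a gene that is high in the control array alone by a like amount will be near, whatever its role. Cd3e showed a step of -2.98 between Tcf1 and control cells, beside -3.08 for Dtx1.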

How the data were processed

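Per the labels' protocols, 250 ng of total RNA was amplified and labelled for Affymetrix whole-transcript arrays. The submitters' processing notes name RMA and Partek 6.5; parameters and genome build are not given in the sources used here. The deposited log2 values cover 35399 probe sets. Their log base is unstated and was taken from RMA. The 21789 probe sets with a single symbol gave 19938 genes, each by the probe set with the highest mean, and dim genes were kept.

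Group means were fitted over the 4 arrays with limma 3.58.1 in R 4.3.3, adjusted by Benjamini-Hochberg over all genes, with 6.78 degrees of freedom after moderation (1 of them residual). P-values thus rest on the spread of the Tcf1 pair, and the number of arrays limits precision. On simulated data of this size, the fit recovered nearly all 4-fold changes but the share of false calls was above the nominal level in both comparisons. The members and lists were chosen with earlier results of these data known. Named genes were the 10 members, their nearest 5 genes by pattern (for 3 members), Dll4, Rbpj, and pathway genes that passed or were among the 4 largest differences of their list. Marker genes named beside them check the labels. Alternatives were renewed quantile normalization, median centring, a trended prior, a filter at the 25th percentile, all probe sets, averaged probe sets, and each Tcf1 replicate left out.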

Additional observations from a re-analysis of the deposited data

How the results depend on the processing

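Of 120 recomputed tests of single genes, 110 kept their direction and their side of the threshold. Direction could change only under renewed quantile normalization and median centring. The trended prior, the filter, all probe sets and averaged probe sets left the difference of each gene the same by construction. Under those settings only the side of the threshold was free to change. Tests over all 35399 probe sets gave 0 passing members and 0 passing pathway genes in both comparisons, and no probe set of the table passed there. The moderation of the spread was fitted anew on all probe sets, so the p-values changed as well as the number of tests. In limma, 6 members had an unadjusted p under 0.05 against control and 2 against LMPPs; the 6 member calls lost there rest on the same probe sets, so their differences are the same by construction (Dtx4 -1.16, Notch1 -2.18, Notch3 -1.29, Hes1 -2.77, Dtx1 -3.08, Nrarp -2.65). Members lower than control numbered 6, with Heyl added, after median centring and without dim genes. They numbered 0 over all probe sets and 5 in the remaining tests. Pathway genes that passed against control numbered 9 (2 higher, 7 lower) under each of these, 5 with a trended prior (2 higher, 3 lower) and 3 as reported. All genes that passed against control rose from 874 to 1646 after centring. Sign changes in 2 of these tests were of differences near 0 that did not pass: Dtx1 against LMPPs at 0.004 after renewed quantile normalization, and Hes5 against control at -0.0026 after centring. Without a Tcf1 replicate no residual freedom was left, so the 40 values had no test; 39 kept their direction, and Dtx1 against LMPPs turned to 0.003 without replicate 2. Members at least 2-fold apart then numbered 5 against control and 1 against LMPPs, as with both. No paired analysis was possible because LMPP and control cells had 1 array each.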

Other observations

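Relatives within a family had different orders of the 4 arrays in some cases. Among receptors, the control array was the highest for Notch1 (12.63) and Notch3 (9.15) and the lowest for Notch2 (9.88). Among Deltex genes, control minus LMPP was 3.03 for Dtx1, 1.85 for Dtx3 and -1.41 for Dtx4 on the log2 scale. Differences between genes were not tested.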
